A study of Mus musculus with 15 samples.

Results

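Mature dermal adipocytes of mice at postnatal day 35 (P35) were compared with those at postnatal day 25 (P25), across every gene that was well enough expressed to be tested. The comparison uses 6 of the 15 libraries of the series, 3 at each of the 2 ages, chosen by their age label alone. The other libraries, 3 each at P21, P29 and P49, lent their spread to the test and are cited only to place the 2 ages. Both groups were C57BL/6 mice with no treatment or engineered allele named in the labels. Fat cells were freed from dorsal skin with Collagenase IV and Dispase II and collected as the floating fraction after centrifugation, and total RNA was sequenced. Neither sex nor the number of animals behind a library is labelled, and nothing states that libraries of an age came from different mice. All p-values here therefore rest on library-to-library spread, part of which may be technical.

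Values are FPKM, read fragments scaled to gene length and to the total counted to genes in the library, so levels of different genes can be set side by side. Of 35275 genes in the file, the 12259 at 1 FPKM or more in at least 3 of the 15 libraries were tested, with limma on log2(FPKM + 1) and Benjamini-Hochberg adjustment over all of them. A gene is said to have risen or fallen where the adjusted p was under 0.05. A log2 change is P35 minus P25 on the log2(FPKM + 1) scale, which understates the change of genes at low level. Values of single libraries are always given in the order replicate 1, 2, 3.

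Dermal adipocytes form the fat layer of the lower skin, around the growing ends of hair follicles. In mice of about these ages the follicles of the back leave a resting phase and pass through a growth phase, and the fat layer thickens and thins with that cycle. The labels give no hair cycle stage for any sample. Adipocytes make fatty acids from acetyl-CoA and store them as triglyceride. They also make cholesterol from acetyl-CoA through mevalonate, under the control of the SREBP transcription factors, which Insig proteins hold back when sterols are plentiful. Besides lipid they secrete adipokines and acute phase proteins.

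Adipocyte transcripts were abundant in all 6 libraries. The 8 adipocyte markers Adipoq, Plin1, Plin4, Cidec, Fabp4, Lpl, Lep and Cfd summed to 40434, 19685 and 34452 FPKM at P25 and to 42737, 34848 and 39585 FPKM at P35. P25 replicate 2 was the lowest of the 6 by this sum. It also had the highest value of all 5 endothelial, all 5 fibroblast and all 3 hair shaft markers. The endothelial sum was 38.5, 149 and 29.8 FPKM at P25 and 40.3, 66.3 and 55.3 FPKM at P35. The fibroblast sum was 1314, 10019.5 and 1716 FPKM at P25 and 767, 1706 and 1211 FPKM at P35. The correlation of P25 replicate 2 with P25 replicates 1 and 3 over all tested genes was 0.925 and 0.928, against 0.993 between those 2, and it was highest with P21 replicate 1, at 0.971. Results are therefore given with and without P25 replicate 2. Reads counted to genes numbered 23214103 to 32219574 per library, so that 3 reads on a gene of 1 kb stood for 0.0931 to 0.129 FPKM.

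Between P25 and P35, 81 genes rose (0.661% of those tested) and 40 fell (0.326%), 121 in all (0.987%). Of the 121, 43 differed at least 2-fold on the log2(FPKM + 1) scale, and in all 121 the 3 libraries of one age lay wholly above the 3 of the other. An absence of overlap was itself common, at 1693 of the tested genes (13.8%). With P25 replicate 2 left out, 280 genes rose (2.28%) and 269 fell (2.19%), 549 in all (4.48%), and these held all 121 of the first set with the same sign. P25 then stood on 2 libraries, and 5034 tested genes (41.1%) had no overlap. The fit of all 15 libraries called 22 genes when P35 replicate 1 was left out, 57 without P35 replicate 2, 58 without P35 replicate 3 and 63 without P25 replicate 3. In the fit without P25 replicate 2, leaving out P25 replicate 3 or P25 replicate 1 as well left 25 and 42 calls, leaving out P35 replicate 2 as well left 157 and P35 replicate 3 left 285. With limma's voom, run on the whole reads recovered from the FPKM, the counts were 88 with all libraries and 444 without P25 replicate 2.

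**Figure D1:**
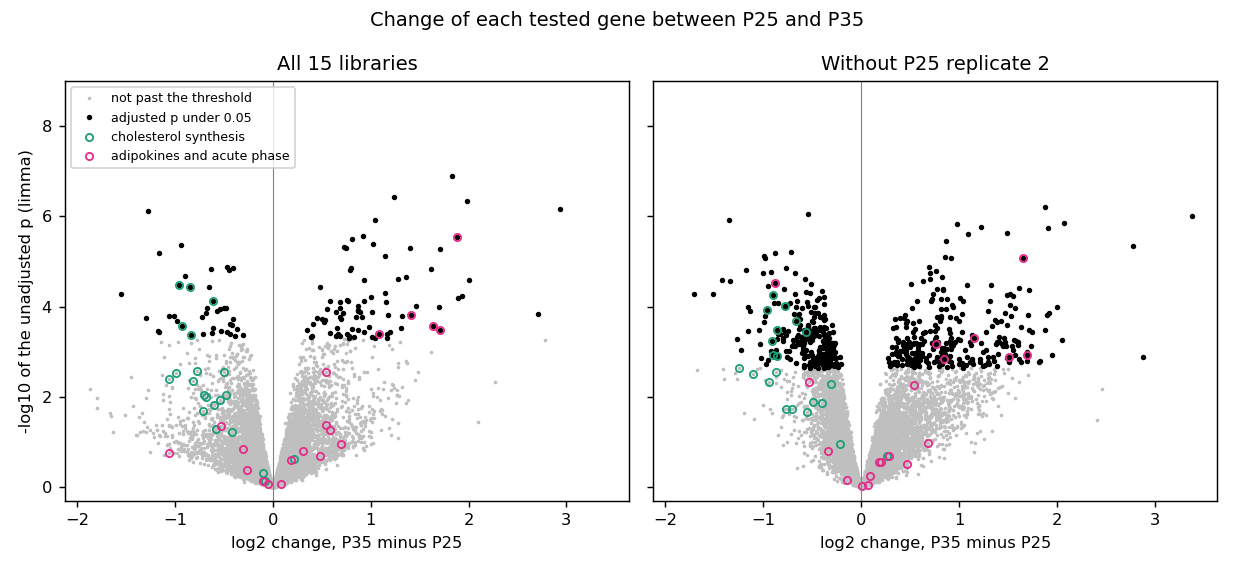
Each point is 1 of 12259 genes, with its log2 change from P25 to P35 on the horizontal axis and the -log10 of its unadjusted limma p on the vertical axis, for all 15 libraries (left) and without P25 replicate 2 (right). Black points passed an adjusted p of 0.05 (121 and 549 genes); green rings, the cholesterol genes, lie left of 0 in all but 1 case, and the pink rings highest on the right of the left panel are acute phase genes.

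Genes of cholesterol synthesis were lower at P35. Of 21 tested, 5 fell and none rose, 20 had a lower mean log2 level at P35, and the median log2 change was -0.68, where the median over all tested genes was -0.00 and 0.326% of them fell. Once P25 replicate 2 was left out, 9 of the 21 fell (2.19% of all genes did) and the median was -0.78. In 14 of the 21 every P35 library lay below every P25 library, against 7.19% of all tested genes. Of the 5 called with all libraries, Idi1, Sqle, Msmo1 and Hsd17b7 are enzymes of the middle and later pathway, and Insig1 is part of its sterol-sensing brake. The number called depended on single libraries: it was 0 without P35 replicate 1, 1 without P35 replicate 3 and 2 without P25 replicate 3. Without P25 replicate 2 it was 4 without P35 replicate 3 as well, 3 without P25 replicate 1 as well and 0 without P25 replicate 3 as well.

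Idi1 (ENSMUSG00000058258, chromosome 13, 8885501 to 8892451, GRCm38) encodes the isomerase that makes dimethylallyl diphosphate. It stood at 6.84, 6.82 and 8.88 FPKM at P25 and 4.07, 3.94 and 3.17 FPKM at P35. All 3 P35 libraries were below the lowest P25 library (log2 change -0.85, SE 0.14, adjusted p = 0.0139; log2 -0.90, adjusted p = 0.0126 without P25 replicate 2), but without P35 replicate 1 or 3 the adjusted p was 0.0512 or 0.0536. Sqle, the squalene epoxidase that opens the sterol branch, was at 4.99, 6.81 and 6.77 FPKM at P25 and 2.74, 3.63 and 2.04 FPKM at P35, with no overlap (log2 change -0.93, SE 0.19, adjusted p = 0.0393; log2 -0.86, adjusted p = 0.0396 without P25 replicate 2). Its adjusted p was 0.107 without P25 replicate 3, 0.133 without P35 replicate 1 and 0.12 without P35 replicate 3.

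Msmo1 (ENSMUSG00000031604, chromosome 8, 64718139 to 64733792) encodes an oxidase that strips methyl groups from the sterol ring. Its level was 12.4, 14.6 and 17.4 FPKM at P25 and 7.63, 7.98 and 5.84 FPKM at P35, so that even the highest P35 library lay well below the lowest P25 one (log2 change -0.95, SE 0.15, adjusted p = 0.0132; log2 -0.96, adjusted p = 0.0161 without P25 replicate 2). Among the libraries left out in turn, P35 replicate 1 ended this call (adjusted p = 0.0512). Hsd17b7, a ketone reductase of the same branch, stood at 3.51, 4.16 and 3.98 FPKM at P25 and 2.15, 2.71 and 1.80 FPKM at P35, a smaller but equally separate fall (log2 -0.61, adjusted p = 0.0216; log2 -0.57, adjusted p = 0.0249 without P25 replicate 2). It was lost without P25 replicate 3, P35 replicate 1 or P35 replicate 3 (adjusted p = 0.0652, 0.09 and 0.0607).

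Insig1 (ENSMUSG00000045294, chromosome 5, 28071363 to 28078662), far the most abundant of the 5, fell from 268 ± 54.5 to 148 ± 24.4 FPKM (SD, n = 3 here and below), with library values of 232, 241 and 330.4 FPKM at P25 and 127, 175 and 144 FPKM at P35 (log2 change -0.84, SE 0.18, adjusted p = 0.0474; log2 -0.91, adjusted p = 0.0296 without P25 replicate 2). This call rested on every library but P25 replicate 2: leaving out P25 replicate 1 or 3 gave an adjusted p of 0.0545 or 0.126, leaving out P35 replicate 1, 2 or 3 gave 0.192, 0.0574 or 0.124, voom gave 0.0658 and median-ratio scaling 0.0601.

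The other members given here, but for Pmvk, are named after their values were seen. Mvd and Fdps, the steps around isopentenyl diphosphate, had log2 changes of -1.06 and -0.99, among the lowest of the list, and adjusted p values of 0.139 and 0.121. Without P25 replicate 2, Mvk, Pmvk, Lss and Sc5d fell as well, at log2 -0.66, -0.90, -0.86 and -0.78.

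Not every gene of the pathway was lower. Hmgcs1, which condenses the carbon units that become mevalonate, stood at 49.5, 59.98 and 59.2 FPKM at P25 and 59.9, 86.3 and 53.95 FPKM at P35, the only list member with a positive estimate (log2 0.22, adjusted p = 0.626). Of the transcription factors that drive the pathway, Srebf2 stood at 10.4, 16.3 and 10.9 FPKM at P25 and 7.94, 9.40 and 7.93 FPKM at P35 (log2 -0.50, adjusted p = 0.12). Srebf1, which drives fatty acid genes in particular, stood at 199.7, 142 and 218 FPKM at P25 and 301, 186 and 233 FPKM at P35, with overlapping ages (log2 0.36, adjusted p = 0.434). Whether these differ from the genes that fell was not tested.

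**Figure D2:**
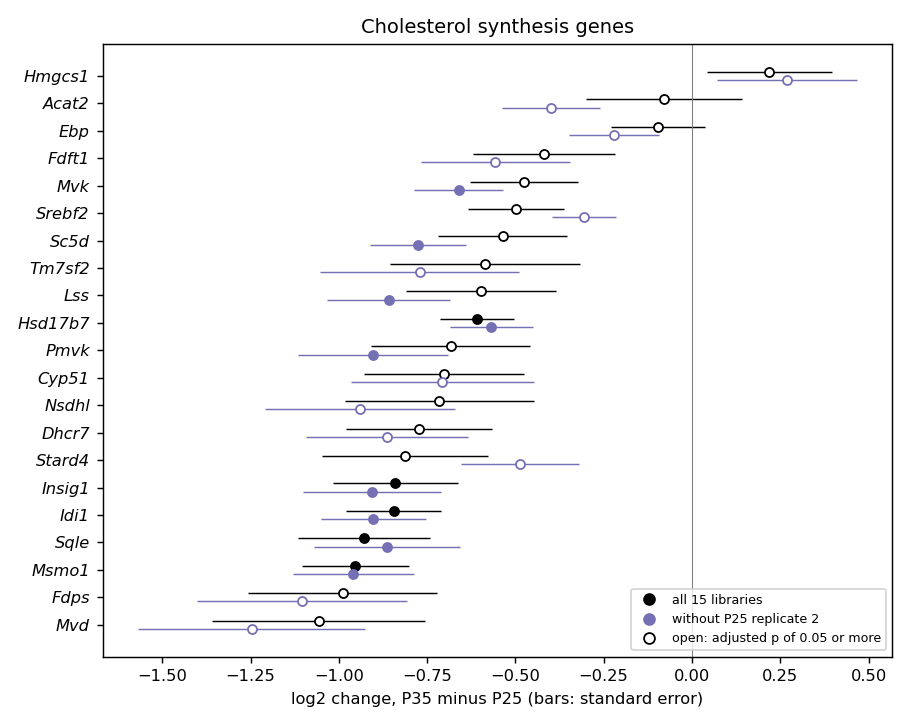
Log2 change from P25 to P35 (horizontal axis, bars: standard error) of the 21 tested genes of cholesterol synthesis, with all 15 libraries (black) and without P25 replicate 2 (violet); filled points have an adjusted p under 0.05. All but Hmgcs1 lie left of 0, 5 of the black points are filled and 9 of the violet ones.

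SREBP binds promoters beside the CCAAT-binding factor NF-Y, so promoters of 3 cholesterol genes are shown, 2 that fell and Hmgcs1, which did not. They are RefSeq promoters on GRCm38.p6, read in the direction of the gene, and stop before the first annotated transcript start. Capitals mark CCAAT on either strand (ATTGG on the strand shown) and TCACNCCAC, the core of a sterol regulatory element.
Insig1 (chr5:28071162-28071362, plus strand): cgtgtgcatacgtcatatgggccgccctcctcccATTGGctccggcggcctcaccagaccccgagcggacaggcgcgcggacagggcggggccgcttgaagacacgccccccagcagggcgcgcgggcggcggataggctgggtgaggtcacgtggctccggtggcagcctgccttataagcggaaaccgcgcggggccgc
Hsd17b7 (chr1:169969242-169969455, minus strand): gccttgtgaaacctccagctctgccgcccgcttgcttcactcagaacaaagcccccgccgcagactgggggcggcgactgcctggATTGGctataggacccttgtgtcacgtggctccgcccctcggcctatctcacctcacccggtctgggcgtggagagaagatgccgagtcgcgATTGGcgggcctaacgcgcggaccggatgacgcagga
Hmgcs1 (chr13:119690101-119690350, plus strand): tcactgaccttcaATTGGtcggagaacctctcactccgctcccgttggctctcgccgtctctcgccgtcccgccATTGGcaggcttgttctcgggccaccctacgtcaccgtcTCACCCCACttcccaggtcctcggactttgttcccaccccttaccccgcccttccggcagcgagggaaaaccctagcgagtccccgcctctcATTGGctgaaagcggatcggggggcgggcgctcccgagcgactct
Insig1 holds 1 CCAAT in this window, Hsd17b7 2 and Hmgcs1 3, and Hmgcs1 alone of the 3 holds a TCACNCCAC. The windows of Msmo1 and Idi1, which also fell, are not shown. The stop at the first transcript start cut them to 36 and 145 bases, and they hold neither motif. In the 250 bases before the start, CCAAT on either strand occurred in 16 of the 17 cholesterol genes that had a RefSeq promoter (94.1%), against 3581 of 8928 tested genes (40.1%). TCACNCCAC occurred in 1 of 17 (5.88%), against 112 of 8928 (1.25%). Both counts used the full 250 bases, also for genes whose window was cut above. These matches describe the letters and are not evidence of binding.

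Fatty acid synthesis showed 1 call in the fit of all libraries, a fall (0.326% of all genes fell). Fads1 (ENSMUSG00000010663, chromosome 19, 10182888 to 10196870, GRCm38), a desaturase that makes polyunsaturated fatty acids, stood at 24.6, 24.995 and 35.2 FPKM at P25 and 10.5, 11.1 and 11.1 FPKM at P35. The P35 libraries were nearly equal and far below every P25 library, and leaving out any of the 6 libraries kept the call (log2 change -1.28, SE 0.14, adjusted p = 0.00185; log2 -1.35, adjusted p = 0.00281 without P25 replicate 2). Of 19 tested genes of the list 15 had a negative log2 change and the median was -0.69. In the list, 7 of the 19 had no overlap, all lower at P35 (as were 7.19% of all tested genes): besides Fads1, these were Acly, Fasn, Scd2, Me1, Acss2 and Slc25a1. Of these, Acly and Fasn are given in full, chosen after their values were seen. Acly, which makes cytosolic acetyl-CoA, stood at 423, 334 and 677 FPKM at P25 and 169, 181 and 151 FPKM at P35, a wide gap whose test did not pass (log2 -1.45, adjusted p = 0.133; log2 -1.68, adjusted p = 0.0514 without P25 replicate 2). Fasn, the fatty acid synthase, stood at 1821, 1193 and 2533 FPKM at P25 and 946, 671 and 832 FPKM at P35 (log2 -1.13, adjusted p = 0.19; log2 -1.41, adjusted p = 0.0514 without P25 replicate 2).

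With P25 replicate 2 left out, 4 of the 19 fell (2.19% of all genes did) and the median was -0.87. Besides Fads1 these were the acetyl-CoA carboxylases Acaca and Acacb, which commit acetyl-CoA to fatty acids, and Thrsp, a lipogenic regulator. Acacb stood at 62.03, 33.5 and 89.1 FPKM at P25 and 46.03, 27.3 and 28.4 FPKM at P35, where P35 replicate 1 overlapped P25 replicate 2 but neither of the other P25 libraries (log2 change -1.15, SE 0.23, adjusted p = 0.0249). Acaca stood at 212, 122 and 271 FPKM at P25 and 154, 91.6 and 116 FPKM at P35, with P25 replicate 2 inside the range of P35 (log2 change -1.02, SE 0.24, adjusted p = 0.0404). Thrsp, which lies outside the naming rule and completes the 4, stood at 1310.3, 737 and 1292 FPKM at P25 and 848, 701 and 639 FPKM at P35, with P25 replicate 2 again inside that range (log2 change -0.84, SE 0.18, adjusted p = 0.0257). Voom gave an adjusted p of 0.0522 for Acaca. The adjusted p of Acacb and Acaca was 0.0685 and 0.103 without P25 replicate 1 as well and 0.221 and 0.275 without P25 replicate 3 as well. Leaving out P35 replicate 2 or 3 as well gave 0.0711 and 0.0596 for Acacb and 0.115 and 0.0865 for Acaca. Scd1, the abundant stearoyl-CoA desaturase, did not pass in either fit: 5586, 4132 and 7018 FPKM at P25 and 5135, 3819 and 4598 FPKM at P35 (log2 -0.28, adjusted p = 0.665; log2 -0.48, adjusted p = 0.275 without P25 replicate 2).

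Among the largest rises were major urinary protein genes, which encode small carriers of lipophilic molecules. They are near-identical copies in a cluster on chromosome 4, so reads can be shared between them and the value of any 1 copy is uncertain. Of 21 Mup genes in the file 8 were tested, all 8 were higher at P35 with no overlap (as were 6.62% of all tested genes), and 6 rose (0.661% of all genes did). The family was singled out after its values were seen. Mup2, at 0.451, 0.118 and 0.441 FPKM at P25, met the filter of 1 FPKM through later ages alone. For genes this low at P25 the filter favours those that are higher later, so the 8 of 8 is no test of the family. The number that rose was again 6 under both other scalings and without P25 replicate 2, but 3 with voom and 4 without P35 replicate 1. With P25 replicate 2 left out it was 3 with voom, 2 without P25 replicate 1 as well and 1 without P25 replicate 3 as well. Mup7 (ENSMUSG00000073842, chromosome 4, 60066469 to 60070475, GRCm38) stood at 3.47, 2.16 and 3.33 FPKM at P25 and 47.5, 24.99 and 20.6 FPKM at P35, the largest log2 change of any called gene (log2 change 2.93, SE 0.32, adjusted p = 0.00185; log2 2.77, adjusted p = 0.00461 without P25 replicate 2). Every P35 library was several times the highest P25 library. Mup10 stood at 1.73, 2.01 and 1.32 FPKM at P25 and 10.3, 9.11 and 9.41 FPKM at P35, with P35 libraries close to each other (log2 change 1.99, SE 0.21, adjusted p = 0.00183; log2 2.07, adjusted p = 0.00281 without P25 replicate 2). It was the only gene of the 12259 that passed when the test used the P25 and P35 libraries alone (adjusted p = 0.0386).

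Mup15 stood at 1.96, 1.58 and 2.52 FPKM at P25 and 20.1, 9.63 and 6.81 FPKM at P35 (log2 2.01, adjusted p = 0.0109; log2 1.90, adjusted p = 0.018 without P25 replicate 2) and Mup11 at 1.27, 0.945 and 2.07 FPKM at P25 and 14.2, 8.43 and 3.84 FPKM at P35 (log2 1.89, adjusted p = 0.0203; log2 1.74, adjusted p = 0.0249 without P25 replicate 2). P35 replicate 1 was the highest of both, and Mup11 lost its call without P35 replicate 1 or 2 (adjusted p = 0.052 and 0.0636). With voom the adjusted p of Mup15, Mup11 and Mup20 was 0.0636, 0.0714 and 0.0729. Mup17 and Mup20, named after their values were seen, also rose, from 1.10 ± 0.322 to 5.76 ± 2.77 FPKM (log2 1.61, adjusted p = 0.008; log2 1.52, adjusted p = 0.0149 without P25 replicate 2) and from 1.31 ± 0.369 to 3.38 ± 0.318 FPKM (log2 0.93, adjusted p = 0.0455; log2 1.03, adjusted p = 0.0249 without P25 replicate 2). The Mup20 call ended without any of P25 replicate 1, P25 replicate 3 or P35 replicates 1, 2 and 3 (adjusted p = 0.103, 0.0942, 0.144, 0.0952 and 0.132). Mup3 went from 10.9 ± 5.81 to 27.9 ± 8.11 FPKM without passing (log2 1.37, adjusted p = 0.0911).

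Several acute phase genes rose. Of 19 tested adipokine and acute phase genes 5 rose and none fell (0.661% and 0.326% of all genes did), and the 5 were Lrg1, Saa3, Lcn2, Hp and Serpina3n. In the fit without P25 replicate 2, 6 rose, the same 5 with the chemokine Ccl2, and 1 fell, Retn (2.28% and 2.19% of all genes did). The median log2 change of the list was 0.48 with all libraries and 0.29 without P25 replicate 2. The number that rose was 1 without P25 replicate 3, P35 replicate 1 or P35 replicate 2, and 3 without P35 replicate 3. It was 2 with voom, Lrg1 and Hp, where the adjusted p of Saa3, Lcn2 and Serpina3n was 0.0505, 0.0642 and 0.062. After P25 replicate 2 was left out it was 4 with voom, 1 without P25 replicate 1 as well, 0 without P25 replicate 3 as well, 1 without P35 replicate 2 as well and 3 without P35 replicate 1 or 3 as well.

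Lrg1 (ENSMUSG00000037095, chromosome 17, 56119680 to 56121946, GRCm38), a secreted leucine-rich glycoprotein of the acute phase, stood at 453, 251 and 348 FPKM at P25 and 1213, 1334 and 1223 FPKM at P35. The P35 libraries were tight and all above the highest P25 library, and the call held without any 1 library (log2 change 1.88, SE 0.23, adjusted p = 0.00425; log2 1.66, adjusted p = 0.00529 without P25 replicate 2). Hp, the haemoglobin scavenger haptoglobin, stood at 5545, 2757 and 3870.3 FPKM at P25 and 10625, 10530.5 and 9876 FPKM at P35 (log2 change 1.41, SE 0.26, adjusted p = 0.0291). P25 replicate 2 was the lowest of the 6, and the estimate without it was smaller (log2 1.16, adjusted p = 0.0281). The Hp call ended without P25 replicate 3 or P35 replicates 1, 2 or 3 (adjusted p = 0.0809, 0.118, 0.0854 and 0.0684). Hp and Serpina3n lie outside the naming rule and complete the 5.

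Saa3, the serum amyloid A made by fat and macrophages, stood at 73.8, 57.3 and 48.8 FPKM at P25 and 192, 316 and 124 FPKM at P35, with P35 libraries that differed more than 2-fold among themselves (log2 1.71, adjusted p = 0.0438; log2 1.69, adjusted p = 0.039 without P25 replicate 2). Lcn2, which binds bacterial iron carriers, had the same order of P35 libraries, 10.9, 5.83 and 5.45 FPKM at P25 and 23.8, 37.3 and 15.6 FPKM at P35 (log2 1.64, adjusted p = 0.0383; log2 1.52, adjusted p = 0.0402 without P25 replicate 2). P35 replicate 2 was the highest of both. The Saa3 call ended without P25 replicate 1 or 3 or P35 replicate 1 or 2 (adjusted p = 0.0567, 0.116, 0.139 and 0.129), and the Lcn2 call without P25 replicate 3 or P35 replicate 1 or 2 (adjusted p = 0.107, 0.13 and 0.118). Serpina3n, a protease inhibitor, went from 223 ± 62.2 to 461 ± 27.2 FPKM (log2 1.08, adjusted p = 0.0468; log2 0.85, adjusted p = 0.0417 without P25 replicate 2). It passed narrowly: the adjusted p was 0.0942 without P25 replicate 3, 0.163, 0.134 and 0.0989 without P35 replicates 1, 2 and 3, and 0.0601 with median-ratio scaling.

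Other members of the list did not pass with all libraries. Adipoq, adiponectin, stood at 2658, 1406 and 2576 FPKM at P25 and 2673, 2500.3 and 2733 FPKM at P35 (log2 0.31, adjusted p = 0.553; log2 0.01, adjusted p = 0.972 without P25 replicate 2). Lep, leptin, stood at 255, 150.1 and 255 FPKM at P25 and 343, 288 and 304 FPKM at P35, higher in all 3 P35 libraries yet not past the threshold (log2 0.54, adjusted p = 0.356). Retn, resistin, stood at 1389, 704 and 1543 FPKM at P25 and 847, 799 and 746 FPKM at P35: the P35 libraries lay between P25 replicate 2 and the other P25 libraries, and the gene fell without P25 replicate 2 (log2 -0.88, adjusted p = 0.0105), though not without P25 replicate 1 or 3 as well (adjusted p = 0.0539 and 0.125).

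Of the other largest rises, Pmepa1 (ENSMUSG00000038400, chromosome 2, 173224458 to 173276533, GRCm38) had the smallest p of all tested genes with every library in the fit. It encodes a membrane protein that TGF-beta induces and that dampens TGF-beta signalling. It stood at 26.96, 30.2 and 28.3 FPKM at P25 and 129, 85.5 and 102 FPKM at P35 (log2 change 1.84, SE 0.17, adjusted p = 0.00156; log2 1.88, adjusted p = 0.00281 without P25 replicate 2). P25 replicate 2 did not stand apart for this gene, and no 1 library ended the call. C6, a component of the terminal complement complex, stood at 1.68, 2.70 and 1.19 FPKM at P25 and 7.31, 6.90 and 10.5 FPKM at P35, and its call held without any 1 library too (log2 change 1.71, SE 0.23, adjusted p = 0.00436; log2 1.91, adjusted p = 0.00281 without P25 replicate 2). Vnn1, a pantetheinase that frees the vitamin part of coenzyme A, stood at 7.46, 3.35 and 4.44 FPKM at P25 and 34.8, 18.1 and 15.2 FPKM at P35, with P35 replicate 1 the highest (log2 change 1.93, SE 0.32, adjusted p = 0.0197; log2 1.72, adjusted p = 0.0245 without P25 replicate 2). Without P25 replicate 3 or P35 replicate 1 its adjusted p was 0.0629 or 0.0674.

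Pmepa1 was the only 1 of 17 tested TGF-beta target genes to rise with all libraries (0.661% of all genes did), and the median of the list was 0.25. Once P25 replicate 2 was left out, 4 of 17 rose, Pmepa1, Id2, Smad7 and Id3 (2.28% of all genes did), and the median was 0.52. Smad7, an inhibitor of the same pathway, stood at 7.41, 15.2 and 6.88 FPKM at P25 and 13.8, 11.4 and 12.5 FPKM at P35, with P25 replicate 2 the highest of the 6 (log2 0.73, adjusted p = 0.0123 without it). Id2, a transcriptional inhibitor, stood at 7.93, 28.2 and 7.12 FPKM at P25 and 15.8, 19.5 and 18.2 FPKM at P35, again with P25 replicate 2 on top (log2 1.14, adjusted p = 0.0263 without it). Neither passed when P25 replicate 1 or 3 was left out as well: the adjusted p was 0.0685 and 0.129 for Smad7 and 0.097 and 0.205 for Id2. For Id2 it was 0.0735 and 0.0574 without P35 replicate 2 or 3 as well.

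The largest fall was that of Fabp5 (ENSMUSG00000027533, chromosome 3, 10012548 to 10016607, GRCm38), a cytosolic carrier of fatty acids. It stood at 137, 104 and 149 FPKM at P25 and 37.8, 55.7 and 38.5 FPKM at P35, so even the highest P35 library was far below the lowest P25 one (log2 change -1.55, SE 0.26, adjusted p = 0.0187; log2 -1.70, adjusted p = 0.0123 without P25 replicate 2). The adjusted p was 0.0629 without P25 replicate 3, 0.0885 without P35 replicate 1 and 0.0585 without P35 replicate 3. Parm1, a mucin-like membrane protein, stood at 16.96, 12.03 and 21.9 FPKM at P25 and 5.45, 7.97 and 5.24 FPKM at P35 (log2 -1.30, adjusted p = 0.0298; log2 -1.51, adjusted p = 0.0123 without P25 replicate 2). Its call ended without P25 replicate 1 or 3 or P35 replicate 1 or 3 (adjusted p = 0.0682, 0.0959, 0.13 and 0.0994).

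Obsl1 and Hvcn1 fell in a way that no single library decided. Obsl1, a cytoskeletal adaptor, stood at 7.28, 9.08 and 5.41 FPKM at P25 and 2.11, 2.52 and 3.35 FPKM at P35 (log2 change -1.16, SE 0.16, adjusted p = 0.005; log2 -1.01, adjusted p = 0.00832 without P25 replicate 2). Hvcn1, a voltage-gated proton channel, stood at 7.44, 7.32 and 9.32 FPKM at P25 and 2.84, 4.08 and 4.30 FPKM at P35 (log2 change -0.94, SE 0.12, adjusted p = 0.00433; log2 -0.99, adjusted p = 0.00529 without P25 replicate 2). In both the P25 libraries were at least 1.5 times the highest P35 library, and P25 replicate 2 lay close to or above the others.

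Tfrc, the transferrin receptor through which cells take up iron, stood at 23.6, 13.5 and 24.3 FPKM at P25 and 7.999, 6.59 and 10.8 FPKM at P35; P25 replicate 2 was the lowest P25 library and still above P35 (log2 -1.16, adjusted p = 0.0455; log2 -1.42, adjusted p = 0.00999 without it). Its adjusted p lay between 0.0534 and 0.158 when any of the 5 other libraries was left out, and was 0.0514 with voom. Gpx3, a secreted glutathione peroxidase, stood at 1069, 578 and 696 FPKM at P25 and 432, 346 and 371 FPKM at P35 (log2 -0.98, adjusted p = 0.032; log2 -1.17, adjusted p = 0.00832 without P25 replicate 2). It lost its call without P25 replicate 3 or any P35 library (adjusted p = 0.066, 0.0859, 0.114 and 0.0956). Fam57b, a multi-pass membrane protein, stood at 5.84, 6.22 and 10.4 FPKM at P25 and 2.18, 3.15 and 2.77 FPKM at P35 (log2 -1.17, adjusted p = 0.0438; log2 -1.27, adjusted p = 0.0286 without P25 replicate 2). It lost its call without P25 replicate 3 or any P35 library (adjusted p = 0.11, 0.173, 0.0836 and 0.102), with voom (0.0566) and under both other scalings (0.0528 and 0.057).

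Without P25 replicate 2, further genes fell. Kcnk2, a potassium channel, stood at 14.9, 9.46 and 15.5 FPKM at P25 and 6.87, 6.87 and 7.92 FPKM at P35 (log2 -0.77, adjusted p = 0.052; log2 -0.98, adjusted p = 0.00529 without P25 replicate 2). Nat8l, which makes N-acetylaspartate from acetyl-CoA, stood at 30.9, 16.5 and 32.1 FPKM at P25 and 12.8, 12.7 and 15.4 FPKM at P35 (log2 -1.15, adjusted p = 0.0149 without P25 replicate 2). Klb, the co-receptor through which fat cells sense FGF21, stood at 15.7, 8.78 and 23.7 FPKM at P25 and 7.88, 11.6 and 8.72 FPKM at P35, with P25 replicate 2 inside the range of P35 (log2 -0.98, adjusted p = 0.0186 without it). In Kcnk2 and Nat8l all 3 P25 libraries were above P35, with P25 replicate 2 the nearest. The 3 calls ended without P25 replicate 3 as well (adjusted p = 0.0771, 0.145 and 0.197), and that of Nat8l also without P25 replicate 1 as well (0.0784).

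**Figure D3:**
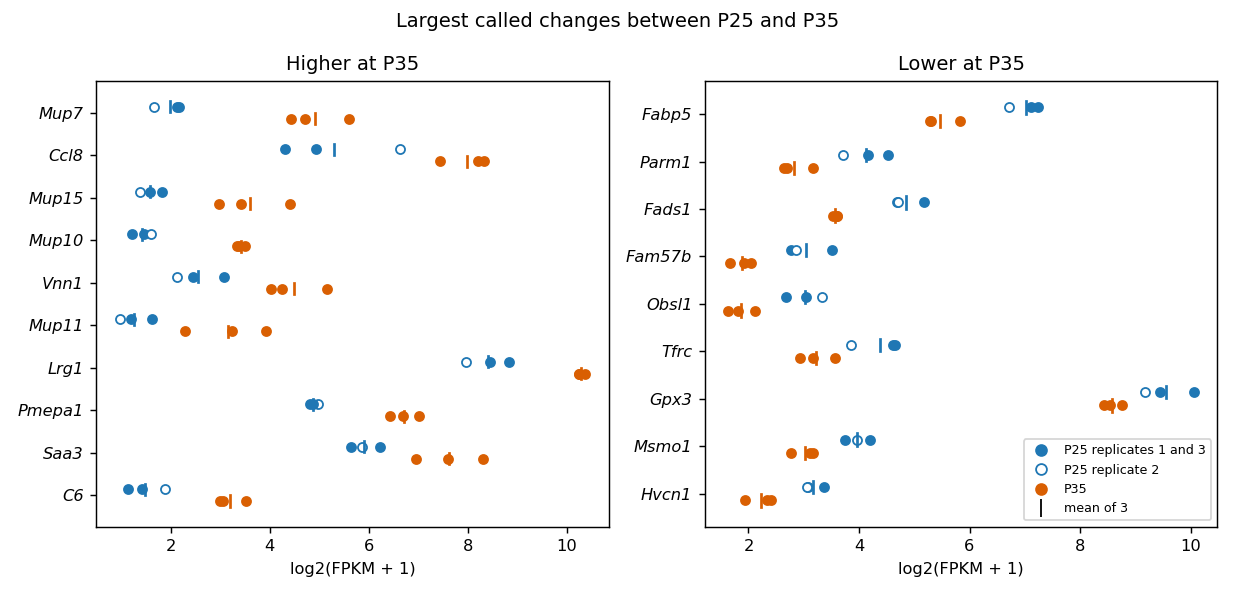
Level of 10 of the largest rises (left) and 9 of the largest falls (right) among the called genes, as log2(FPKM + 1) in each of the 6 libraries: blue for P25, with replicate 2 as an open circle, and orange for P35; short bars are the means of 3 libraries. In all 19 genes the 2 ages do not overlap, and P25 replicate 2 is not set apart for Pmepa1, Mup10 or Fads1.

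Of 22 tested genes of the mature adipocyte, 1 rose and none fell (0.661% and 0.326% of all genes did), and the median log2 change was 0.18. With P25 replicate 2 left out, 1 rose and 4 fell (2.28% and 2.19% of all genes did), and the median was -0.06. The gene that rose was Tusc5, a membrane protein that helps move the glucose transporter of fat to the surface, at 134, 87.6 and 132 FPKM at P25 and 225, 167 and 211 FPKM at P35 (log2 0.78, adjusted p = 0.0482; log2 0.58, adjusted p = 0.0339 without P25 replicate 2). The libraries did not overlap, but the adjusted p was 0.066 without P25 replicate 3, 0.192, 0.0511 and 0.143 without P35 replicates 1, 2 and 3, 0.0656 with voom and 0.0554 with median-ratio scaling. Plin1, the lipid droplet coat, stood at 1301, 677 and 1269.9 FPKM at P25 and 1273, 1177 and 1331 FPKM at P35 (log2 0.28, adjusted p = 0.585), and Pparg, the master regulator of adipocytes, at 159, 102 and 166 FPKM at P25 and 180.1, 139 and 161 FPKM at P35 (log2 0.19, adjusted p = 0.643). Their P35 libraries lay within or near the range of P25 replicates 1 and 3, and the estimates without P25 replicate 2 were -0.03 and -0.03.

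The 4 that fell without P25 replicate 2 were Adrb3, Retn, Slc2a4 and Gpd1. Adrb3, the beta-adrenergic receptor of fat, stood at 134, 52.4 and 148 FPKM at P25 and 65.2, 69.1 and 71.8 FPKM at P35. Its P35 libraries were tight and lay between P25 replicate 2 and the others (log2 -0.56, adjusted p = 0.509; log2 -1.03, adjusted p = 0.0297 without P25 replicate 2). Slc2a4, the insulin-responsive glucose transporter, stood at 96.8, 52.6 and 93.6 FPKM at P25 and 60.4, 50.2 and 65.5 FPKM at P35, with P25 replicate 2 inside the range of P35 (log2 -0.70, adjusted p = 0.0296 without P25 replicate 2). Their calls ended without P25 replicate 1 or 3 as well (adjusted p = 0.111 and 0.217 for Adrb3, 0.135 and 0.196 for Slc2a4) and without P35 replicate 2 as well (0.0764 and 0.0834). Adrb3 also lost its call without P35 replicate 1 or 3 (0.0509 and 0.0586).

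None of 18 lipolysis genes passed with all libraries (3 had an unadjusted p under 0.05, and voom also called 0). The median log2 change was 0.16 and 13 of the 18 were positive, with the lipases Pnpla2 and Lipe at 0.22 and 0.29. Without P25 replicate 2 the median was -0.06, 12 of the 18 were negative and 1 fell (2.19% of all genes did). In fatty acid oxidation 17 of 20 genes had a positive log2 change with all libraries, but 14 of 20 had a negative one without P25 replicate 2. Of the 20, 1 rose, in both fits (0.661% and 2.28% of all genes did). That was Cpt1a, which loads fatty acids for entry into mitochondria, at 15.2, 20.004 and 13.7 FPKM at P25 and 23.1, 27.04 and 29.8 FPKM at P35 (log2 0.69, adjusted p = 0.0474; log2 0.83, adjusted p = 0.0116 without P25 replicate 2). Its adjusted p lay between 0.0859 and 0.155 when any 1 of the 5 other libraries was left out, and was 0.0587 with voom.

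None of 30 nuclear-encoded subunits of oxidative phosphorylation passed with all libraries (2 had an unadjusted p under 0.05 and voom called 0), and the median was -0.19. In the fit without P25 replicate 2, 8 of 30 fell, 29 had a negative log2 change and the median was -0.38, with 2.19% of all genes falling. Cycs, the electron carrier cytochrome c, stood at 45.03, 34.2 and 52.1 FPKM at P25 and 30.6, 32.1 and 29.96 FPKM at P35 (log2 -0.47, adjusted p = 0.203; log2 -0.63, adjusted p = 0.0297 without P25 replicate 2). Ndufs1, a core subunit of complex I, stood at 56.7, 35.4 and 53.7 FPKM at P25 and 38.3, 31.3 and 38.99 FPKM at P35, with P25 replicate 2 inside the range of P35 (log2 -0.60, adjusted p = 0.0149 without it). With P25 replicate 2 left out, the 8 calls became 1 without P35 replicate 2 as well, 4 without P35 replicate 3 as well, 4 with median-ratio scaling, and 0 without P25 replicate 1 or 3 as well.

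Among 19 tested genes of insulin and glucose handling, 1 fell with all libraries (0.326% of all genes did) and 3 without P25 replicate 2 (2.19%). The 1 that fell in both fits was Akt1, a kinase of the insulin signal, at 58.9, 58.6 and 61.4 FPKM at P25 and 44.6, 43.2 and 46.8 FPKM at P35 (log2 -0.40, adjusted p = 0.0299; log2 -0.42, adjusted p = 0.0236 without P25 replicate 2). The difference was small but the libraries of each age were tight. Its adjusted p lay between 0.0589 and 0.126 when any 1 of the 5 libraries other than P25 replicate 2 was left out. None of 14 genes of triglyceride synthesis passed with all libraries (3 had an unadjusted p under 0.05, voom called 0), and 3 fell without P25 replicate 2 (2.19% of all genes did): Agpat2, Agpat9 and Gpd1. Voom then gave 0.0571 for Gpd1. Agpat2, which adds the second acyl chain, stood at 533, 382 and 697 FPKM at P25 and 325, 383 and 343 FPKM at P35 (log2 -0.80, adjusted p = 0.0281 without P25 replicate 2). That call ended without P25 replicate 1 or 3 or P35 replicate 2 or 3 as well (adjusted p = 0.0689, 0.249, 0.051 and 0.0618).

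Some genes of macrophages passed the test without P25 replicate 2, and none with it. None of 17 tested passed with all libraries (4 had an unadjusted p under 0.05 and voom called 0), yet all 17 had a positive log2 change, with a median of 0.81. Once P25 replicate 2 was left out, 7 of 17 rose (2.28% of all genes did): Cd14, Fcgr1, C1qb, C1qa, C1qc, Itgam and Siglec1, and the median was 1.36. In 16 of the 17 the P35 libraries lay above P25 replicates 1 and 3, against 19.9% of all tested genes. In bulk RNA, more cells of a type and more RNA per cell cannot be told apart. The 4 immune markers Ptprc, Cd68, Csf1r and Cd3e summed to 54.8, 164 and 44.1 FPKM at P25 and to 81.8, 153 and 155 FPKM at P35. P25 replicate 2 was thus the highest of the 6, and P25 replicates 1 and 3 the lowest. Cd3e, which marks T cells, was at 0 in 1 P25 library. The part of other cells in these results was not tested.

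C1qb, a chain of the complement component that macrophages make, stood at 99.4, 308 and 76.2 FPKM at P25 and 165, 353 and 331 FPKM at P35. P25 replicate 2 lay among the P35 libraries (log2 1.01, adjusted p = 0.399; log2 1.61, adjusted p = 0.0415 without P25 replicate 2). Cd14, a receptor for bacterial lipopolysaccharide, stood at 23.6, 65.6 and 20.7 FPKM at P25 and 58.8, 89.9 and 79.7 FPKM at P35, in the same order (log2 1.72, adjusted p = 0.0116 without P25 replicate 2). Fcgr1, a receptor for antibodies, stood at 1.75, 4.09 and 1.52 FPKM at P25 and 5.04, 11.04 and 6.50 FPKM at P35, and here the 2 ages did not overlap even with P25 replicate 2 (log2 1.32, adjusted p = 0.162; log2 1.63, adjusted p = 0.0438 without it, but 0.07 with voom). With P25 replicate 2 left out, 1 of the 17 rose without P35 replicate 2 or 3 as well, and 0 without P25 replicate 1 or 3 as well; without P35 replicate 1 as well, 10 did.

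Ccl8 (ENSMUSG00000009185, chromosome 11, 82115185 to 82116799, GRCm38), a chemokine that draws monocytes, rose with all libraries. It stood at 29.3, 98.5 and 18.8 FPKM at P25 and 172, 320.3 and 297 FPKM at P35. The lowest P35 library was above P25 replicate 2, which in turn was over 3 times the other P25 libraries (log2 change 2.71, SE 0.50, adjusted p = 0.0283; log2 3.38, adjusted p = 0.00281 without P25 replicate 2). The call ended when P25 replicate 1 or 3 or P35 replicate 1, 2 or 3 was left out (adjusted p = 0.0697, 0.0809, 0.0617, 0.0952 and 0.0861). Of the largest further rises without P25 replicate 2, Ccl12, a chemokine of the same cluster, stood at 4.35, 21.1 and 4.04 FPKM at P25 and 12.8, 21.9 and 22.8 FPKM at P35 (log2 1.92, adjusted p = 0.0176). Il10, a cytokine that restrains inflammation, stood at 7.74, 15.4 and 5.03 FPKM at P25 and 23.5, 35.03 and 20.5 FPKM at P35 (log2 1.88, adjusted p = 0.0245), and Cxcl14, a chemokine of skin, at 1.45, 13.7 and 1.68 FPKM at P25 and 7.96, 15.3 and 7.18 FPKM at P35 (log2 2.05, adjusted p = 0.0296). In Ccl12 and Cxcl14 P25 replicate 2 lay inside the range of P35, and in Il10 below it. None of the 3 passed without P25 replicate 1 or 3 as well (adjusted p = 0.0825 and 0.152, 0.0771 and 0.213, 0.133 and 0.196) or without P35 replicate 2 as well (0.0513, 0.0693 and 0.0826), and voom gave 0.0762 for Cxcl14.

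Genes induced by interferon, the antiviral cytokine, were also higher at P35 in most libraries. None of 20 passed with all libraries (10 had an unadjusted p under 0.05 and voom called 0), 19 had a positive log2 change and the median was 0.91. Without P25 replicate 2, 7 rose, Ifit2, Isg15, Oasl2, Oas1a, Ifit1, Rsad2 and Usp18 (2.28% of all genes did), and the median was 1.26. Isg15, a ubiquitin-like modifier, stood at 11.2, 54.3 and 16.1 FPKM at P25 and 42.1, 91.2 and 33.01 FPKM at P35, with P25 replicate 2 and P35 replicate 2 the highest (log2 1.18, adjusted p = 0.373; log2 1.83, adjusted p = 0.0438 without P25 replicate 2). Ifit2, which binds foreign RNA, stood at 4.49, 17.3 and 3.28 FPKM at P25 and 16.4, 25.6 and 14.9 FPKM at P35, where P25 replicate 2 was above the lower 2 P35 libraries (log2 2.004, adjusted p = 0.0149 without it). Usp18, which removes Isg15 from proteins, lies outside the naming rule. It stood at 1.85, 4.12 and 2.17 FPKM at P25 and 8.52, 11.5 and 4.63 FPKM at P35, without overlap in the 6 libraries (log2 1.28, adjusted p = 0.105; log2 1.54, adjusted p = 0.0306 without P25 replicate 2).

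The list was also uneven within each age. The mean log2(FPKM + 1) of the 20 genes was 3.17, 4.12 and 3.24 at P25 and 4.25, 5.02 and 3.82 at P35, so P25 replicate 2 lay above P35 replicate 3. After P25 replicate 2 was left out, 2 of the 20 rose without P35 replicate 1 as well, 1 without P35 replicate 2 as well, 2 by voom, and 0 without P25 replicate 1 or 3 as well; without P35 replicate 3 as well, 9 did. The immune marker sums above were also higher at P35 than in P25 replicates 1 and 3. Within P35 the order differed: replicate 3 had an immune sum of 155 FPKM, the highest at P35, and the lowest interferon mean. The part of these markers in the result was not tested.

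The promoters of 2 genes of the list are shown, chosen because they hold letters to which interferon regulatory factors bind. They are again RefSeq promoters on GRCm38.p6 in the direction of the gene, with capitals for GAAA, any 2 bases and GAAA again, on either strand.
Isg15 (chr4:156200819-156201068, minus strand): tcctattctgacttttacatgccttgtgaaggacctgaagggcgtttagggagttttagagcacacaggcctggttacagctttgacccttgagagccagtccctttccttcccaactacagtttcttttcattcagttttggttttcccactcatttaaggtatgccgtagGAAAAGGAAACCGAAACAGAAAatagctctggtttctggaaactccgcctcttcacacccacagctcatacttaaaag
Ifit1 (chr19:34640639-34640870, plus strand): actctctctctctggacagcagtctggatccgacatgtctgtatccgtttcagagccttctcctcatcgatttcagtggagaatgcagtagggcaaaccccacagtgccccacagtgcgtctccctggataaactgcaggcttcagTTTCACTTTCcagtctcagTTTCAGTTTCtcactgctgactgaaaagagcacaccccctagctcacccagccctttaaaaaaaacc
Isg15 holds 3 matches, which overlap each other, and Ifit1 holds 2. The RefSeq promoters of Ifit2, described above, hold none. In the 250 bases before the start the letters occurred in 9 of the 16 interferon genes that had a RefSeq promoter (56.2%), against 278 of 8928 tested genes (3.11%). This count used the full 250 bases, also where a window shown is shorter.

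Without P25 replicate 2, 2 neutrophil genes rose from low levels. S100a9, a calcium-binding protein that fills neutrophils, stood at 0.0671, 0.353 and 0.158 FPKM at P25 and 9.21, 18.95 and 1.67 FPKM at P35. The 3 P35 libraries spanned more than 10-fold, and all were above P25 (log2 2.78, adjusted p = 0.0519; log2 2.88, adjusted p = 0.0396 without P25 replicate 2). Csf3r, the receptor of the neutrophil growth factor, stood at 0.631, 1.98 and 0.529 FPKM at P25 and 2.75, 5.59 and 2.78 FPKM at P35 (log2 1.22, adjusted p = 0.0634; log2 1.52, adjusted p = 0.0124). Not all 5 tested neutrophil genes were higher at P35. With all libraries 1 had a negative log2 change, -0.80. Its P35 libraries lay wholly below P25, as did those of 7.19% of all tested genes. S100a9 and Csf3r were the 2 of the 5 that rose without P25 replicate 2 (2.28% of all genes did). None of the 5 passed with all libraries, where 4 had an unadjusted p under 0.05 and voom called 0. Both calls ended without P25 replicate 1 or 3 as well (adjusted p = 0.167 and 0.216, 0.0726 and 0.128), and that of S100a9 also without P35 replicate 1 or 2 as well (0.065 and 0.101) and with voom (0.169).

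Defining genes of fibroblasts, endothelium and hair did not pass. Col1a1, the main collagen of fibroblasts, stood at 549, 5160.05 and 771 FPKM at P25 and 289, 795 and 517 FPKM at P35 (log2 -1.40, adjusted p = 0.426; log2 -0.40, adjusted p = 0.671 without P25 replicate 2). Pecam1, of endothelium, stood at 10.7, 40.9 and 8.43 FPKM at P25 and 11.97, 18.4 and 15.4 FPKM at P35 (log2 -0.05, adjusted p = 0.976; log2 0.61, adjusted p = 0.355), and Krt71, a keratin of the inner root sheath of hair, at 0.989, 46.1 and 11.3 FPKM at P25 and 1.73, 2.72 and 7.29 FPKM at P35 (log2 -1.26, adjusted p = 0.565; log2 -0.17, adjusted p = 0.912). In all 3 genes P25 replicate 2 was the highest library, and no change passed in either fit. Without P25 replicate 2, all 17 tested endothelial genes had a positive log2 change, with a median of 0.42. In 12 of the 17 every P35 library lay above P25 replicates 1 and 3, against 19.9% of all tested genes. The change was then positive in 11 of 12 pericyte genes and 7 of 7 mast cell genes, against 5978 of all 12259 tested genes. In 0 of the 7 mast cell genes did every P35 library lie above P25 replicates 1 and 3. It was positive in 12 of 19 preadipocyte and fibroblast genes and in 1 of 6 hair shaft genes. With all libraries the change was positive in 5 of the 17 endothelial, 3 of the 12 pericyte and 0 of the 7 mast cell genes. Mki67, a marker of dividing cells, stood at 1.20, 7.10 and 1.84 FPKM at P25 and 0.453, 1.51 and 1.16 FPKM at P35 (log2 -0.90, adjusted p = 0.353; log2 -0.33, adjusted p = 0.485).

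Of 29 collagen and matrix genes none passed with all libraries (7 had an unadjusted p under 0.05, voom called 0), and 3 rose and 1 fell without P25 replicate 2 (2.28% and 2.19% of all genes did; voom called 1 and 0). Col4a1, a chain of the basement membrane collagen, stood at 533, 483 and 559 FPKM at P25 and 761, 730.3 and 693 FPKM at P35, without overlap (log2 0.47, adjusted p = 0.061; log2 0.41, adjusted p = 0.0466 without P25 replicate 2). Nid2, which links basement membrane networks, stood at 105, 91.6 and 129 FPKM at P25 and 63.7, 76.9 and 70.2 FPKM at P35, and it fell without P25 replicate 2 (log2 -0.61, adjusted p = 0.13; log2 -0.72, adjusted p = 0.0412 without it). Both calls ended with voom (0.0699 and 0.051) and when any further library was left out, at an adjusted p of at least 0.0724 for Nid2 and 0.0749 for Col4a1.

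Lysosomal genes, which degrade what cells take up or recycle, were slightly higher at P35. All 20 tested had a positive log2 change with all libraries, with a median of 0.19, and none passed (6 had an unadjusted p under 0.05 and voom called 0). After P25 replicate 2 was left out, 3 of 20 rose (2.28% of all genes did), among them Lipa, the lysosomal lipase, at 21.2, 29.1 and 19.3 FPKM at P25 and 33.6, 36.7 and 38.1 FPKM at P35 (log2 0.80, adjusted p = 0.0202). The Lipa libraries did not overlap. Its call ended without P25 replicate 1, P25 replicate 3 or P35 replicate 2 as well (adjusted p = 0.0806, 0.191 and 0.055).

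Immediate early genes, which cells switch on within minutes of a stimulus and which tissue digestion can also induce, had a median log2 change of -0.02 with all libraries and 0.55 without P25 replicate 2. None of 23 passed in the first fit (0 had an unadjusted p under 0.05 and voom called 0). In the second, all 23 had a positive log2 change and 2 rose, Junb and Ier5 (2.28% of all genes did). There 17 of the 23 had an unadjusted p under 0.05, against 2711 of all 12259 tested genes. In 18 of the 23 every P35 library lay above P25 replicates 1 and 3, against 19.9% of all tested genes. Junb, a subunit of the AP-1 factor, stood at 189, 509 and 153 FPKM at P25 and 232, 329 and 274 FPKM at P35, with P25 replicate 2 the highest of the 6 (log2 0.70, adjusted p = 0.0489 without it). Its call ended with voom (0.051) and without P25 replicate 1 or 3 or P35 replicate 2 or 3 as well (adjusted p = 0.108, 0.316, 0.14 and 0.0995).

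Of 23 tested hair cycle signals, the secreted factors through which skin fat and follicles are known to act on each other, none passed in either fit. With all libraries 2 had an unadjusted p under 0.05 and voom called 0. Bmp2 stood at 2.83, 9.22 and 3.30 FPKM at P25 and 2.82, 4.01 and 4.38 FPKM at P35 (log2 -0.24, adjusted p = 0.789) and Bmp4 at 1.40, 6.07 and 2.64 FPKM at P25 and 2.05, 2.69 and 1.68 FPKM at P35 (log2 -0.34, adjusted p = 0.684), with P25 replicate 2 the highest of both. Igf1, a growth factor, stood at 89.2, 59.5 and 97.8 FPKM at P25 and 100.1, 76.7 and 87.1 FPKM at P35 (log2 0.12, adjusted p = 0.801). No gene passed in either fit among the tested members of the lists for the circadian clock, thermogenesis, Wnt targets, preadipocytes, endothelium, lymphocytes, mast cells, antigen presentation, muscle, red cells, keratinocytes, hair shaft, sebaceous gland, melanocytes, nerve, dermal papilla, cell cycle, the unfolded protein response and the cytosolic ribosome. All 24 tested proteins of the cytosolic ribosome had a negative log2 change with all libraries, with a median of -0.22, and 12 had an unadjusted p under 0.05. In the fit without P25 replicate 2, which had the highest mean of the 6 libraries for this list, the median was -0.11.

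The called genes were placed among the other ages by their mean log2 level. This describes the same P25 and P35 libraries that chose the genes, with P21, P29 and P49 as new samples. Of the 81 that rose, 50 had a P29 mean between the 2 ages and nearer P35, 17 were beyond the P35 mean already and 14 were nearer P25. Of the 40 that fell, 24 were nearer P35 at P29, 10 were beyond it and 6 were nearer P25. At P49, 38 of the 81 were between and nearer P35 and 19 beyond it, while 21 were nearer P25 and 3 below the P25 mean. Of the 40, 16 were nearer P35 at P49 and 20 beyond it. At P21, 40 of the 81 were below the P25 mean, 20 nearer P25, 15 nearer P35 and 6 beyond it. Of the 40 that fell, 11 were nearer P35 at P21 and 14 beyond it, against 8 nearer P25 and 7 above its mean. The fit without P25 replicate 2 differed for the rises. At P29, 129 of its 280 were nearer P25 and 6 below the P25 mean, against 114 nearer P35 and 31 beyond. Of its 269 falls, 179 were nearer P35 at P29 and 44 beyond it. At P21, 160 of the 269 were beyond the P35 mean.

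Single genes differed in this course. Mup10 averaged 6.45 FPKM at P29 and 15.7 FPKM at P49, and Pmepa1 averaged 81.3 and 80.97 FPKM, both far above their P25 means. Ccl8 averaged 78.1 FPKM at P29 and 127 FPKM at P49, below its P35 mean of 263 FPKM at both. Fads1 averaged 12.8 FPKM at P29 and 20.003 FPKM at P49, and Msmo1 6.75 and 10.5 FPKM, low at P29 and between the 2 ages at P49. Obsl1 averaged 17.3 FPKM at P21, 5.17 FPKM at P29 and 1.12 FPKM at P49, a mean that was lower at each later age. Cpt1a averaged 26.2 FPKM at P29, close to P35, and 14.2 FPKM at P49, below its P25 mean.

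**Figure D4:**
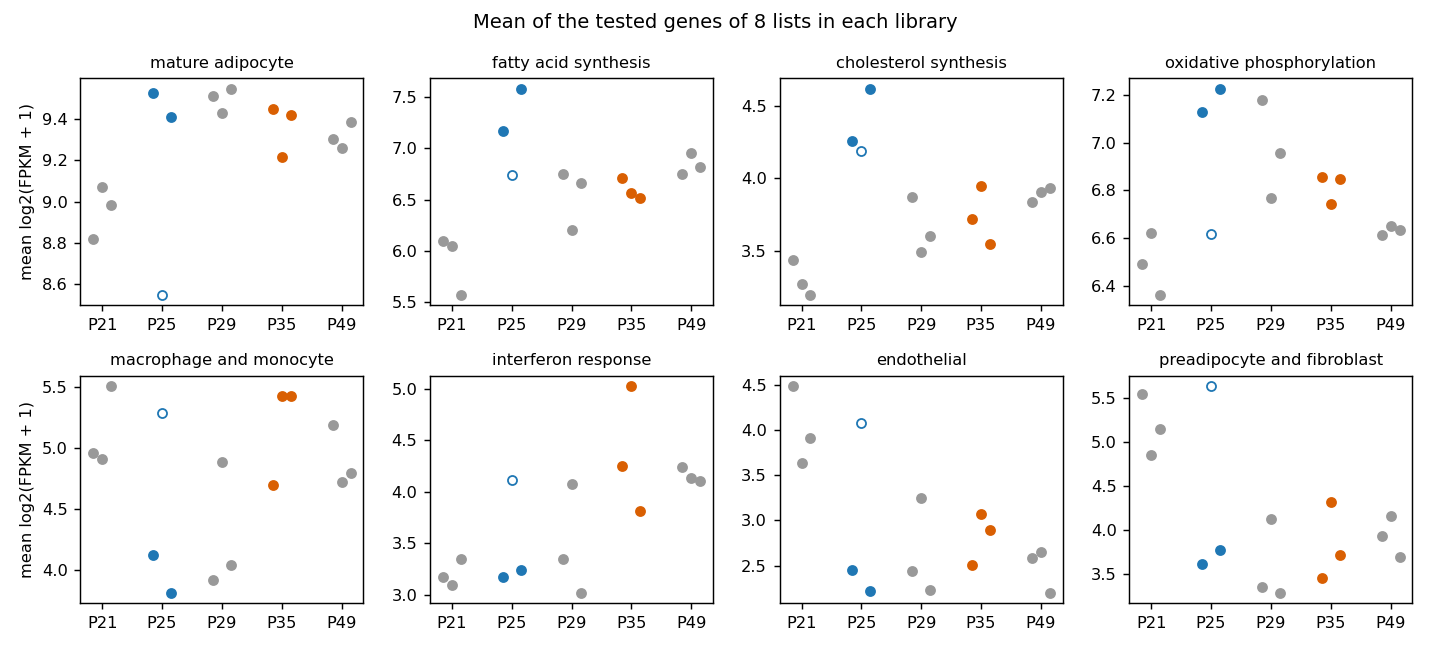
Mean log2(FPKM + 1) over the tested genes of 8 lists in each of the 15 libraries, by age, with P25 in blue (replicate 2 open), P35 in orange and the other ages in grey; vertical axes differ between panels and do not start at 0. The cholesterol genes are lower in all 3 P35 libraries than in any P25 library, while in the mature adipocyte, macrophage, endothelial and fibroblast panels the open circle lies among or beyond the P21 libraries.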

How the data were processed

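RNA-seq of mature dermal adipocytes at 5 ages was used, with 3 libraries per age, grouped by the age in their labels. The deposited table gives FPKM per gene, made by the authors; per the submitters' processing notes the tools and builds named include CASAVA, FastQC, STAR 2.5, HTSeq 0.6.1, mm10 and GRCm38. For the annotation release, the sources used here name none. Deposited FPKM of genes with low counts came out as whole reads in 100% of values, within 0.05 of a read, and the recovered reads gave each library's depth and the voom alternative. FPKM is relative: a large change in a few abundant genes shifts all others.

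A gene was kept if 3 or more of the 15 libraries had it at 1 FPKM or above. limma 3.58.1 (R 4.3.3, statmod 1.5.0) was fitted to log2(FPKM + 1) with a mean per age over all 15 libraries, a trend and robust variances, and the contrast P35 minus P25 was adjusted by Benjamini-Hochberg over all tested genes. The fit was checked on simulated data with independent noise of the same spread in every library. That check held no library that stands apart, as P25 replicate 2 does, so it does not cover this case. Every result was recomputed without P25 replicate 2, and under other scalings, a pseudocount of 0.1, no filter, no trend, P25 and P35 alone, library weights, voom, a 2-fold minimum, a replicate block, and without each library.

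Named genes are the 10 largest rises and falls past the threshold with a mean of at least 5 FPKM at the higher age, no overlap and an established symbol, the same without P25 replicate 2, up to 3 called genes per list and direction in each fit, and a fixed set of marker and pathway genes. Genes outside this rule whose library values are given are said to be so, and further list members are named only to complete a count. A few genes are not reported here and were left out of the lists and figures, whatever their values. The comparison, the 40 gene lists (685 genes, 584 of them tested) and the tests were chosen with earlier results of these data known. Promoters are from RefSeq on GRCm38.p6, matched by symbol for 8928 genes. Figures were drawn with matplotlib 3.10.9.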

Additional observations from a re-analysis of the deposited data

How the results depend on the processing

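All 121 genes kept the sign of their change in every alternative run. The number called was 110 with median-ratio scaling, 132 with quantile normalization, 120 with a pseudocount of 0.1, 111 without the trend, 88 with voom, 66 of 24793 genes without the filter, 1 when P25 and P35 alone were fitted, 1143 with library weights (weight 0.0994 for P25 replicate 2) and 0 against a 2-fold minimum with limma's treat (20 at an unadjusted p under 0.05; voom against 0 called 88). Leaving out 1 library gave 22 to 549. The labels tie the replicate numbers to nothing, and the deviations of same-numbered P25 and P35 libraries from their age means correlated at 0.551, 0.605 and -0.065 for numbers 1, 2 and 3, while P25 replicate 3 correlated best with P35 replicate 1 (0.585), so the numbers were not taken to pair the libraries. With the replicate number as a block all the same, 110 genes were called, of which 91 were among the 121, and 147 without P25 replicate 2.

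Alternatives added after seeing the data, all without P25 replicate 2, gave 573 genes with median-ratio scaling, 643 with quantile normalization (median of all genes -0.05), 444 with voom and 76 when P25 and P35 alone were fitted. With a second library left out as well they gave 25 to 615. The 280 to 269 split of rises to falls became 325 to 248 and 303 to 340 under the 2 scalings. The cause of these differences was not tested. At these depths, 3 reads on a gene of 1 kb stand for 0.0931 to 0.129 FPKM. The filter left genes near that level in all libraries out of the main fit, but some tested genes, such as S100a9, lay near it at P25.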

Other observations

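Further called genes that no list held, named here after their values were seen, included complement and lipid transport. C4b, a complement component, stood at 571, 243 and 386 FPKM at P25 and 897, 805 and 838 FPKM at P35 (log2 change 1.16, SE 0.25, adjusted p = 0.0499; log2 0.85, adjusted p = 0.032 without P25 replicate 2). C2, which acts beside it, stood at 6.69, 5.04 and 6.83 FPKM at P25 and 12.95, 13.5 and 10.01 FPKM at P35 (log2 0.87, adjusted p = 0.0267; log2 0.75, adjusted p = 0.0296 without P25 replicate 2). The 2 ages did not overlap in either gene. C4b lost its call without P25 replicate 3 or P35 replicate 1, 2 or 3 (adjusted p = 0.107, 0.184, 0.12 and 0.123), with voom (0.0636) and with median-ratio scaling (0.0554). C2 lost it without P35 replicate 1 or 2 (0.118 and 0.0926).

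Rarres2, the adipokine chemerin, stood at 86.1, 71.2 and 77.5 FPKM at P25 and 179, 197 and 148 FPKM at P35 (log2 change 1.14, SE 0.16, adjusted p = 0.00533; log2 1.08, adjusted p = 0.0109 without P25 replicate 2). Ltbp3, which holds latent TGF-beta in the matrix, stood at 68.9, 51.3 and 72.8 FPKM at P25 and 139, 122 and 131 FPKM at P35 (log2 change 1.02, SE 0.13, adjusted p = 0.00433; log2 0.87, adjusted p = 0.00389 without P25 replicate 2). No single library ended either call, and the P35 libraries lay wholly above P25. Apoc1, an apolipoprotein, stood at 271, 158 and 323 FPKM at P25 and 619, 510.4 and 491 FPKM at P35 (log2 1.16, adjusted p = 0.0216; log2 0.86, adjusted p = 0.00529 without P25 replicate 2), but its adjusted p was 0.1 without P35 replicate 1 and 0.0565 without P35 replicate 2. Abcg1, which exports cholesterol from cells, stood at 8.55, 7.15 and 5.90 FPKM at P25 and 13.9, 15.8 and 13.9 FPKM at P35, a rise without overlap (log2 0.93, adjusted p = 0.0109; log2 0.93, adjusted p = 0.0149 without P25 replicate 2) that ended without P35 replicate 1 (0.0512). Nt5e, which makes adenosine at the cell surface, fell from 3.37 ± 1.59 to 1.02 ± 0.178 FPKM (SD, n = 3; log2 -1.06, adjusted p = 0.0292; log2 -0.78, adjusted p = 0.0149 without P25 replicate 2), and lost its call without P35 replicate 1, 2 or 3 (0.13, 0.0646 and 0.0798) and with voom (0.0528).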
